A study of Mus musculus with 108 samples.

Results

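Hippocampus (HIP) was compared between 6 wild-type (WT) and 6 Cul3+/- mice at postnatal day 7 (P7), which are 12 of the 108 RNA-seq libraries of the series, chosen by their titles. The mice are C57BL/6N, and the Cul3+/- animals carry a 1 bp frame-shifting insertion in exon 6 of Cul3 made by CRISPR/Cas9 and passed on from 1 founder, so that every mutant mouse carries the same allele. CX (cerebral cortex) and CB (cerebellum) libraries of the same 12 mice served for comparison between regions, and every mouse is named in all regions by the replicate number of its hippocampus library. Males and females were pooled and the labels do not give the sex of a mouse. Total RNA of the dissected tissue was depleted of ribosomal RNA. In such bulk tissue fewer cells of a type and less RNA per cell cannot be told apart. The comparison asks which gene classes differ between genotypes, and how far those differences rest on 1 Cul3+/- library that is rich in choroid plexus transcripts.

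Cullin 3 is the scaffold of a ubiquitin ligase that joins ubiquitin to proteins held by BTB-domain adaptors, among them adaptors for the GTPase RhoA. The hippocampus lies beside the lateral ventricle. Its ventricular wall carries ependymal cells, whose motile cilia move cerebrospinal fluid, and the choroid plexus, a secretory epithelium on a core of vessels and fibroblasts, is attached along the same border. Motile cilia are built from a ring of doublet microtubules with dynein motor arms, radial spokes and a central pair, under a transcription programme headed by Foxj1 and by factors of the RFX family. These cell types therefore enter a hippocampal dissection in amounts that can vary between mice.

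Sequences are shown here for the edited site and for promoter sites in the cilium genes, the class with the most members apart between genotypes. The site cut in Cul3 lies in exon 6, within the coding sequence, at chr1:80287041-80287063 on the minus strand of GRCm38. It is 23 bases long, and capitals mark the 3 bases of the PAM.
Cul3 target site: ggattaatgaggaaatagagCGG
RFX factors bind a paired element called the X-box. Among 89 motile cilium genes with a promoter in the RefSeq table (GRCm38.p6, 250 bases before to 50 after the start), 14 held GTNNCC followed after 2 bases by GGNAAC on either strand, which is 15.7% against 1.49% of 27025 genes. The half-site GTTGCC, which also occurs within some of those longer matches, was in 42 of them, or 47.2%, against 14.1% of all genes. These spellings were picked after others had been tried, and a match is a description of letters, not a bound site. Among choroid plexus genes, 0 of 22 held the longer motif, and 6, or 27.3%, held the half-site. The 8 cilium genes that held the longer motif and were higher in Cul3+/- mice at an unadjusted p under 0.05 are shown by a window of 30 bases. The longer motif is in capitals. Windows are written in the direction of the gene, so a match on the other strand reads GTTNCC followed after 2 bases by GGNNAC.
Ccdc151: cgcgggcgGTTTCCTTGGGAACgtgggcgg
Ccdc180: tccctcgcGTTGCCTAGGAAACcacagcgt
Cfap206: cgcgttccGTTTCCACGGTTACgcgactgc
Kif9: ggcttcctGTTGCCATGGCGACtgtgtaca
Pifo: gcggttccGTTCCCTTGGCAACgtagtaca
Spag6l: tccggttgctgtcgGTTGCCCTGGAGACgc
Ubxn10: ccttggcgGTTGCCAGGGAGACagggctgt
Zmynd10: gctccctcGTTTCCATGGCGACgacgactc
These windows lie at chr9:22002647-22002676, chr4:45890295-45890324, chr4:34730208-34730237, chr9:110476959-110476988, chr3:106001496-106001525, chr16:16829314-16829343, chr4:138725233-138725262 and chr9:107547296-107547325, in the order of the lines. The longer motif was in 16% of the 50 cilium genes with an unadjusted p under 0.05 and in 15.4% of the other 39. The half-site was in 36% of the 50 and in 61.5% of the 39.

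Library totals ran from 28368452 to 43091033 expected counts. Levels are given as CPM, counts scaled to a common library total, and a list level is the mean log2 CPM of its members. The labelled tissue was checked on hippocampal field markers. Prox1, the homeobox gene of dentate granule cells, was at 101 to 146 CPM in WT and 115 to 184 CPM in Cul3+/- libraries, and Grik4, a kainate receptor subunit of CA3, was at 47.6 to 65.8 and 51.3 to 58.6 CPM. Both genes were abundant in every library and their genotypes overlapped. Both libraries named next stood apart from the rest. Cul3+/- replicate 4 lay alone on the first principal component, which held 41.4% of the variance, and had the lowest shares of mitochondrial counts (1.15% against 1.5% to 3.13%) and of transcripts with the annotation class TEC, which await experimental proof (0.0503% against 0.0850% to 0.215%). Cul3+/- replicate 1 lay alone on the second, which held 16.7%, and is the library rich in choroid plexus transcripts.

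Cul3 was the only gene of 17754 tested that passed an adjusted p of 0.1 (edgeR quasi-likelihood test, Benjamini-Hochberg), which is 0.00563% of them. It had 159, 175 and 186 CPM as the lowest, median and highest WT value and 84.3, 94.9 and 101 CPM in Cul3+/- mice. The genotypes did not overlap. Cul3 (chr1:80264923-80340480, minus strand, GRCm38) fell by 0.89 on the log2 scale (SE 0.05, adjusted p = 2.27e-06), and the exact two-sided permutation p over the mice was 0.00216, the smallest such a test can give. An unadjusted p under 0.05 was found for 613 genes higher in Cul3+/- mice, 3.45% of those tested, and for 284 lower, 1.60%. These shares are the background for the gene classes, since no other gene passed the adjusted threshold. The 12 libraries separated without overlap for 31 higher genes (0.175%) and 8 lower genes (0.0451%).

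Motile cilium genes were the class with the most members higher in Cul3+/- mice. Of 103 tested members, 102 had a positive log2 fold change, with a median of 0.42 against 0.01 over all genes tested. The members Pih1d3, Tekt2, Cdc20b and Mcidas had too few counts to be tested. An unadjusted p under 0.05 was found for 61 higher members (59.2%) and for 0 lower ones. In order of level, the WT libraries had a mean log2 CPM over the whole list of 1.47, 1.52, 1.80, 1.81, 1.83 and 1.84, and the Cul3+/- libraries of 1.85, 1.91, 1.96, 2.04, 2.32 and 2.51. All 6 Cul3+/- libraries lay above all 6 WT libraries, by a margin smaller than the spread within either group. The highest values came from Cul3+/- replicates 5 and 1 and the lowest from WT replicates 5 and 6.

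**Figure D1:**
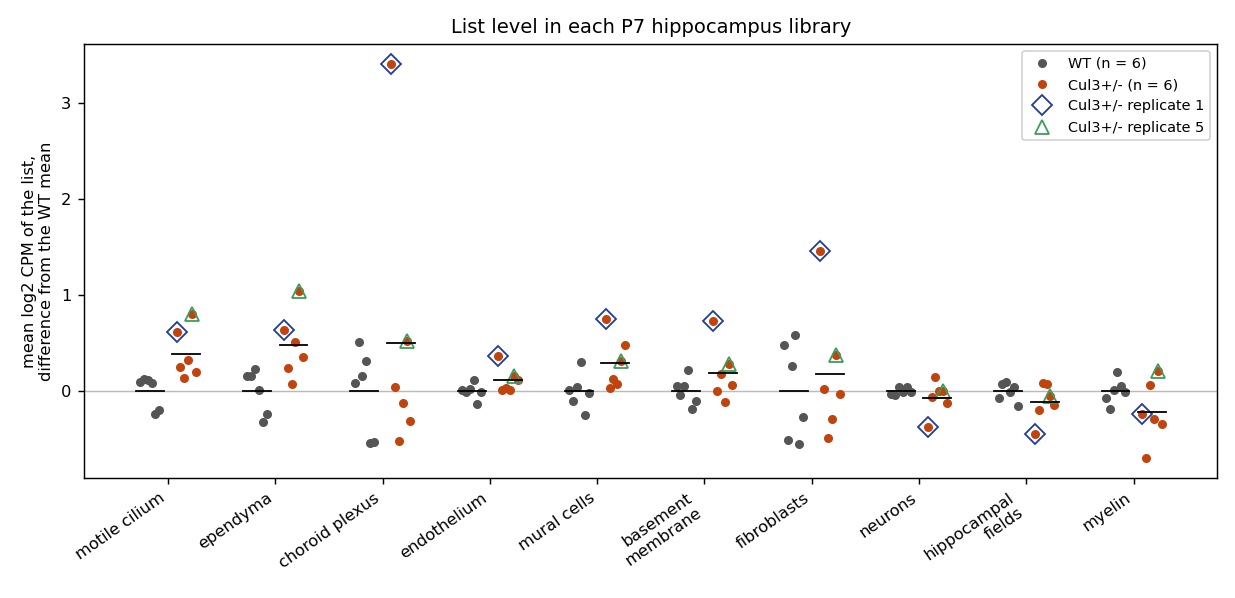
Mean log2 CPM of each gene list in each P7 hippocampus library, as the difference from the WT mean (vertical axis), for 10 lists (horizontal axis). Points are libraries, bars are group means, the diamond is Cul3+/- replicate 1 and the triangle Cul3+/- replicate 5. Cul3+/- replicate 1 stands far above all others in choroid plexus genes, whereas in motile cilium genes all 6 Cul3+/- libraries lie above the WT libraries.

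At the head of the cilium programme, 3 of 8 tested genes of transcription and centriole amplification were higher at an unadjusted p under 0.05. Foxj1 (chr11:116330704-116335399, minus strand), the transcription factor that commits cells to motile cilia, had 11.6, 18 and 23.4 CPM as the lowest, median and highest WT value. In Cul3+/- mice these were 19.7, 26.9 and 35.8 CPM, and 4 of 6 libraries lay above every WT library. The log2 fold change of Foxj1 was 0.59 (SE 0.17, unadjusted p = 0.0044, adjusted p = 0.833). Myb, which acts early in multiciliated cells, went from 2.68 to 3.99 CPM in WT and from 3.23 to 5.79 CPM in Cul3+/- mice, with a log2 fold change of 0.48 (SE 0.15).

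Axonemal genes gave the larger counts. Of the genes of the ruler, the regulatory complex and the axonemal repeats, 24 of 36 were higher at an unadjusted p under 0.05. Ccdc40, part of the molecular ruler that sets the repeat along the axoneme, had 6.94, 8.31 and 9.34 CPM in WT and 8.53, 11.1 and 14.3 CPM in Cul3+/- mice. Its log2 fold change was 0.44 (SE 0.11, unadjusted p = 0.0015). Ccdc180 had 1.79, 2.48 and 2.93 CPM in WT and 3.17, 3.26 and 5.03 CPM in Cul3+/- mice. Here 5 of the Cul3+/- libraries lay close together just above the WT range and replicate 5 lay apart above them.

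Of the radial spoke and central pair genes, 17 of 25 were higher at an unadjusted p under 0.05. Armc3 (chr2:19199302-19310241, plus strand) had the smallest p of all cilium genes. It had 1.82, 2.36 and 2.82 CPM in WT and 2.84, 3.86 and 4.87 CPM in Cul3+/- mice, with no overlap and a log2 fold change of 0.73 (SE 0.16, unadjusted p = 0.00035). Spag16, a central pair protein, had a log2 fold change of 0.65 (SE 0.17). Hydin, which builds a projection of the central pair, ran from 5.66 to 9.26 CPM in WT and from 7.39 to 17.4 CPM in Cul3+/- mice, with 3 of 6 libraries above the WT range.

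Of the dynein arm genes, 13 of 23 were higher at an unadjusted p under 0.05. Wdr78 and Wdr63, both of which belong to inner arm dyneins, had log2 fold changes of 0.42 (SE 0.11) and 0.82 (SE 0.24). Dnah5, the heavy chain of the outer arm, differed less. It had 12.4, 14.5 and 15.6 CPM in WT and 12.2, 16 and 24.6 CPM in Cul3+/- mice, and the genotypes overlapped (log2 fold change 0.19, SE 0.14). Of the assembly factors, 4 of 11 were higher, with Ulk4 without overlap (8.5 to 12 CPM in WT, 12.1 to 14.9 CPM in Cul3+/- mice) and Ubxn10 at 0.63 (SE 0.19). Without overlap between genotypes were 5 of the 103 members, or 4.85% against 0.175% of all genes. These were Armc3, Ccdc180, Ulk4, and also Cfap43 and Ak7, which are named after their values were seen.

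Ependyma genes outside these lists behaved likewise. Some of them, such as the axonemal dynein gene Dnah14, are cilium genes too, so this list is not independent of the cilium lists. Of 11 tested ependyma members 8 were higher at an unadjusted p under 0.05, and all 11 had a positive log2 fold change, with a median of 0.53. Ttc21a had 4.14, 5.66 and 6.46 CPM in WT and 6.62, 7.71 and 13.6 CPM in Cul3+/- mice, without overlap. Among the 6 genes higher in Cul3+/- mice with the smallest p of all, Armc3 and Ttc21a were list members and Ccdc60, whose log2 fold change was 0.88 (SE 0.20), belonged to none of the lists.

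Choroid plexus genes had the largest median log2 fold change of these lists, 1.20 over 25 tested members, of which 12 were higher at an unadjusted p under 0.05 and 0 lower. Cox8b, Kcne2 and Slc4a5 had too few counts to be tested. The difference went with 1 library. The mean log2 CPM of the list was 4.34 in Cul3+/- replicate 1, from 0.42 to 1.46 in the other 5 Cul3+/- libraries and from 0.39 to 1.44 in WT libraries. Replicate 1 was the highest of the 12 libraries in 23 of the 25 members. It held 4070 CPM of Ttr, the thyroid hormone carrier secreted by this epithelium, against at most 29.3 CPM in the other Cul3+/- libraries and from 3.80 to 146 CPM in WT libraries.

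The other defining genes had the same form. Folr1, a folate receptor, was at 34.6 CPM in replicate 1, at no more than 2.24 CPM in the other Cul3+/- libraries and at 0.737 to 2.41 CPM in WT. Kl, the co-receptor Klotho, was at 25.7 CPM in replicate 1 and at 4.05 to 4.98 CPM in the other 5, against 4.77 to 5.82 CPM in WT. Otx2, a homeobox factor of the plexus, was at 16.9 CPM, and the potassium channel gene Kcnj13 at 15.2 CPM, in replicate 1. In the WT libraries neither gene exceeded 1.40 CPM. Tmem72 had the same form, with 41.8 CPM in replicate 1 and 0.155 to 1.03 CPM in the other 5.

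**Figure D2:**
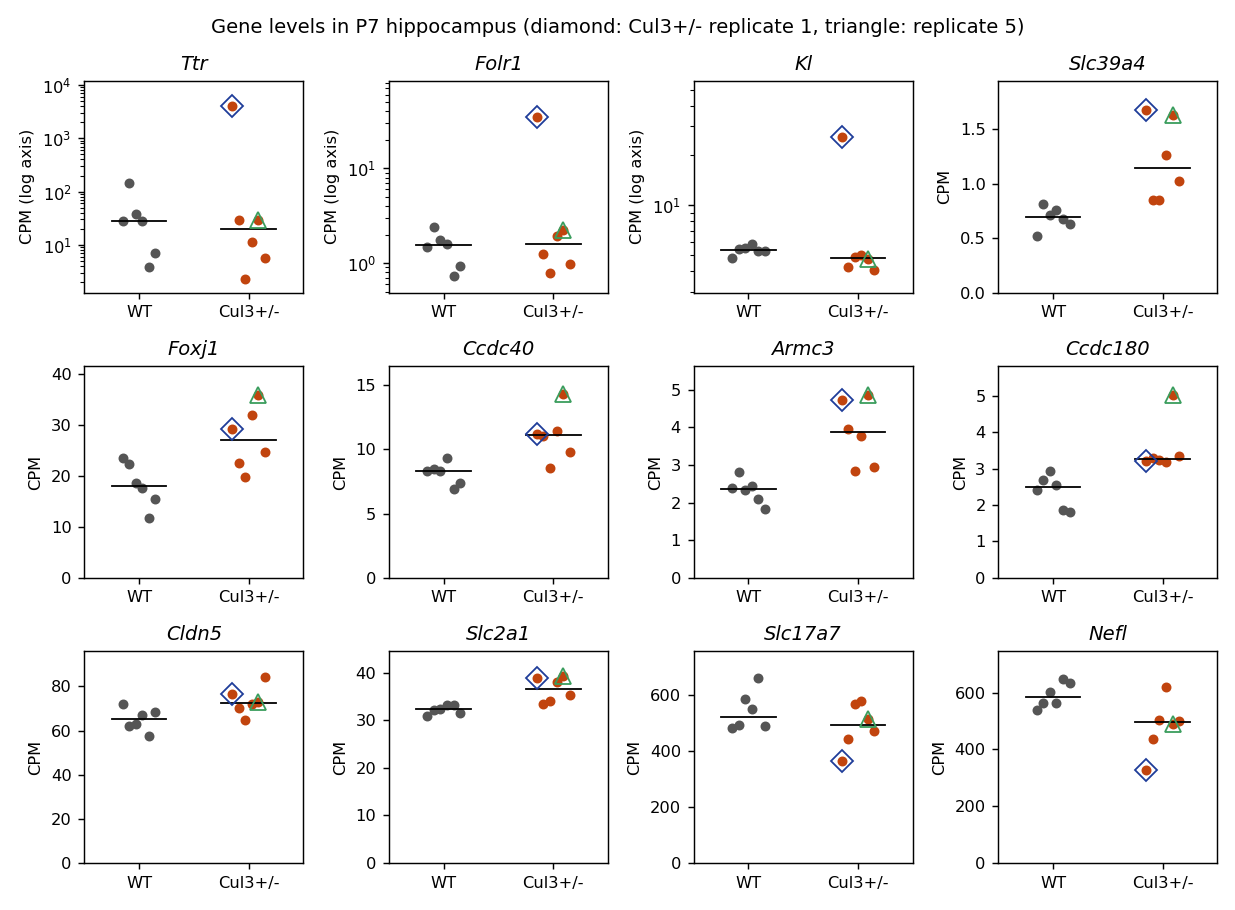
CPM of 12 genes in the 6 WT and 6 Cul3+/- libraries of P7 hippocampus (points), with the group median as a bar. The first 3 panels have a log axis, the diamond is Cul3+/- replicate 1 and the triangle replicate 5. Ttr, Folr1 and Kl stand far above the rest in replicate 1. Armc3 and Ccdc180 are higher in every Cul3+/- library than in any WT library, and Foxj1 and Ccdc40 have higher Cul3+/- medians with overlap.

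Without replicate 1 the choroid plexus list lost its difference. Its median log2 fold change was -0.05, 11 of 25 members were positive, and an unadjusted p under 0.05 was found for 2 higher and 2 lower members. In that fit 2.30% of all genes were higher and 1.10% lower at this p. Ttr had a log2 fold change of 4.05 (SE 1.70) with all libraries and of -1.43 without replicate 1. Kl turned from 0.60 to -0.23 (unadjusted p = 0.016), and Folr1 from 2.23 to -0.05. Slc39a4 and Col8a2 were the 2 members still higher. The zinc transporter gene Slc39a4 was at 0.519 to 0.814 CPM in WT and 0.853 to 1.68 CPM in Cul3+/- mice without overlap, with a log2 fold change of 0.83 (SE 0.21) and of 0.72 without replicate 1. Col8a2, a collagen gene named after its values were seen, was at 38.5 CPM in replicate 1 and at most 9.40 CPM in the other 5, against 3.57 to 6.28 CPM in WT, and its log2 fold change went to 0.39 without replicate 1.

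The cilium genes were less tied to that library. Without replicate 1 their median was 0.35, all 103 members were positive and 43 were higher at an unadjusted p under 0.05, which is 41.7% against 2.30% of all genes, and all 43 were among the 61. Replicate 1 was the highest library in 21 of the 103 members and replicate 5 in 70. Without replicate 5, whose choroid plexus level of 1.46 was close to the highest WT value of 1.44, the median was 0.30 and 38 members were higher at this p, against 2.36% of all genes (0.993% lower). With replicates 1 and 5 both left out, a choice made after the data were seen, the median was 0.20 and 19 of 103 members were higher (18.4% against 1.33% of all genes). With the choroid plexus level of each library as a covariate the median was 0.33, with 49 members higher against 2.65% of all genes (1.29% lower).

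Higher at an unadjusted p under 0.05 with all libraries and in each of the 12 fits without 1 library were 37 of the 103 cilium members (35.9%), against 1.39% of all genes tested. Foxj1 kept a log2 fold change between 0.49 and 0.68 over these fits, Ccdc40 between 0.36 and 0.51 and Armc3 between 0.65 and 0.80. Without replicates 1 and 5 together, Foxj1 had 0.44, Ccdc40 0.32 and Armc3 0.54, whereas Hydin went from 0.54 to 0.21 and Dnah5 from 0.19 to 0.02. For ependyma genes the median was 0.49 without replicate 1 and 0.32 without both. Of the cilium members, 70 were highest in replicate 5, in which the ependyma level of 2.64 was also the highest of the 12 libraries. The part of ependymal tissue in the cilium difference was not tested.

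**Figure D3:**
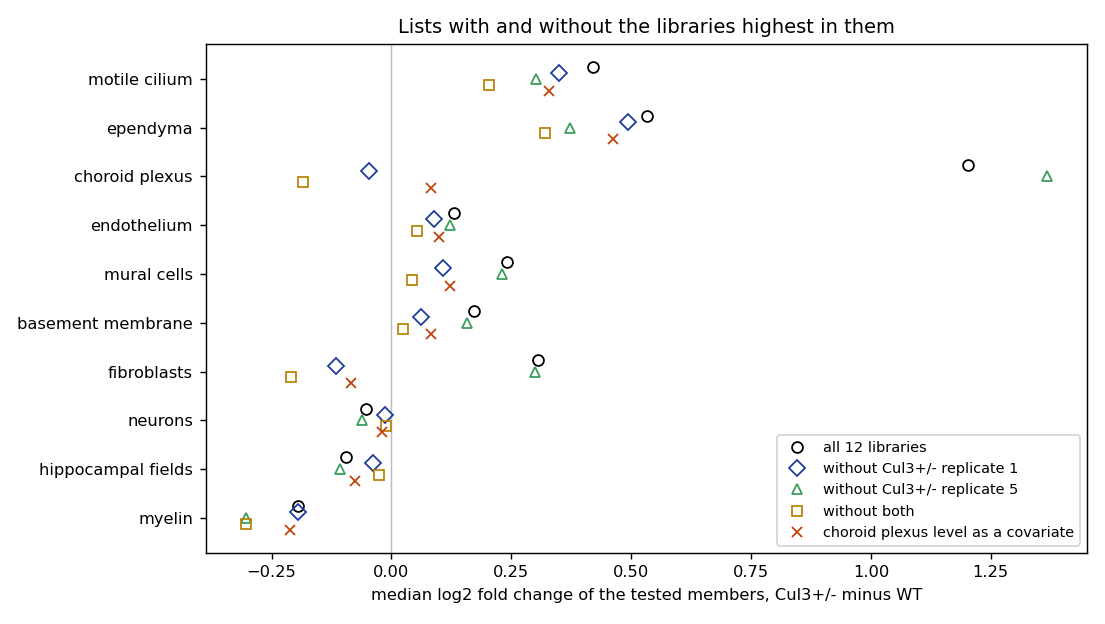
Median log2 fold change of the tested members of 10 lists, Cul3+/- minus WT (horizontal axis), with all 12 libraries, without Cul3+/- replicate 1, without replicate 5, without both, and with the choroid plexus level as a covariate. The choroid plexus and fibroblast medians cross 0 once replicate 1 is left out, and the motile cilium and ependyma medians stay above 0 throughout.

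Vascular genes showed small differences, part of which went with replicate 1. Over the endothelium, mural cell and basement membrane lists together, 66 of 68 tested members were positive, with a median of 0.17, and 11 (16.2%) were higher at an unadjusted p under 0.05 with 0 lower. Replicate 1 was the highest library in 44 of the 68, or 64.7%, against 18.7% of all genes. Without it the median was 0.08 and 6 members (8.82%) were higher, against 2.30% of all genes, 5 of them among the 11. WT replicate 5 was the lowest library in 33 of the 68, against 1483 of all 17754 genes. Counts without that WT library are given further below. Higher in all 13 fits were 3 members, or 4.41%, against 1.39% of all genes. The mean level of the combined list, Cul3+/- minus WT, differed by 0.184 in hippocampus, 0.125 in cortex and 0.097 in cerebellum. For endothelium alone these differences were 0.117, 0.104 and 0.099. Genotypes overlapped in each region. For endothelium 3, 2 and 5 Cul3+/- libraries lay above every WT library, and for the combined list 3, 2 and 1.

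Endothelium held most of what was left. Of 36 members 8 were higher at an unadjusted p under 0.05, against 3.45% of all genes, and 6 without replicate 1, against 2.30%. The medians were 0.13 and 0.09. Slc2a1, the glucose transporter of the blood-brain barrier, had 31, 32.3 and 33.3 CPM in WT and 33.4, 36.6 and 39.3 CPM in Cul3+/- mice, without overlap, and a log2 fold change of 0.18 (SE 0.05) with all libraries and of 0.15 without replicate 1. Cldn5, the tight junction claudin of brain endothelium, had 57.5, 65.0 and 72.1 CPM in WT and 64.6, 72.5 and 84.3 CPM in Cul3+/- mice, with a log2 fold change of 0.18 (SE 0.07) and of 0.16 without replicate 1. Eng, a co-receptor of TGF-beta ligands, had 0.20 and 0.19. Pecam1 went from 0.17 to 0.11, and Kdr, the main VEGF receptor, from 0.13 to 0.04, both being highest in replicate 1. Cd93, a receptor known from endothelium that was in none of the lists, had 50.9 to 59.5 CPM in WT and 61.8 to 72.2 CPM in Cul3+/- mice, a log2 fold change of 0.24 (SE 0.05) and of 0.21 without replicate 1.

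In mural cells and basement membrane no member kept an unadjusted p under 0.05 without replicate 1. Of 18 tested mural genes (Actg2 and Cnn1 had too few counts) 2 were higher at an unadjusted p under 0.05, against 3.45% of all genes. They were Acta2 and Myh11 of smooth muscle, with log2 fold changes of 0.57 (SE 0.25) and 0.54 (SE 0.25). Without replicate 1 these fold changes were 0.48 and 0.34, and the median of the mural list went from 0.24 to 0.11. The count was also 0 without WT replicate 1 or WT replicate 5, and 6 without Cul3+/- replicate 4, against 8.66% of all genes. The pericyte receptor gene Pdgfrb went from 0.18 to 0.09. Of 14 basement membrane genes 1 was higher, against 3.45% of all genes. It was Hspg2 (perlecan), at 24.3 to 73.9 CPM in Cul3+/- and 22.2 to 37.4 CPM in WT libraries. The log2 fold change of Hspg2 went from 0.54 to 0.27. Lama5 went from 0.43 to 0.20 and Col4a1 from 0.17 to 0.08. Replicate 1 was the highest library in 13 of these 14 genes.

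Fibroblast and meningeal genes had a median of 0.31 with 0 of 27 members at an unadjusted p under 0.05, and a median of -0.12 without replicate 1, which was the highest library in 24 of the 27. Mgp and Lox, matrix genes with the smallest p of the list, had 1.01 (SE 0.58) and 0.78 (SE 0.49) and went to 0.28 and 0.14. Col1a1 was at 123 CPM in replicate 1 and at most 57.5 CPM in the other 5, against 27.9 to 65.4 CPM in WT, whereas Dcn was not highest in replicate 1 and had -0.15 with and without it. Blood and border macrophage genes were also highest in replicate 1, in 6 of 6 and in 9 of 10 members. Hba-a1, an alpha globin, was at 101 CPM there and at most 78.9 CPM in the other Cul3+/- libraries.

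**Figure D4:**
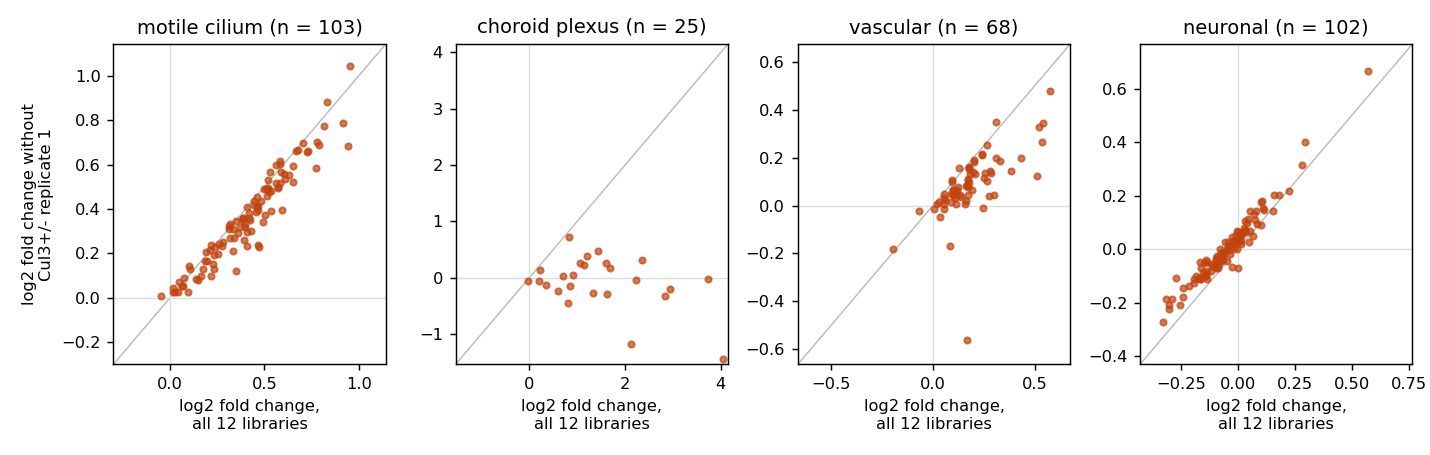
Log2 fold change of every tested member of the motile cilium, choroid plexus, vascular and neuronal lists, Cul3+/- minus WT, with all 12 libraries (horizontal axes) and without Cul3+/- replicate 1 (vertical axes). The grey diagonal marks equal values. Cilium genes lie near the diagonal, choroid plexus genes around 0 on the vertical axis, and most vascular genes below the diagonal.

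Neuronal genes differed little in the main fit. Over 102 tested members the median log2 fold change was -0.05, and 1 was higher and 4 (3.92%) were lower at an unadjusted p under 0.05, against 3.45% and 1.60% of all genes. Replicate 1 was the lowest library in 77 of the 102, or 75.5%, against 20.1% of all genes, and the median without it was -0.01, with 1 higher and 3 lower. Cul3+/- replicate 3 was the highest library in 41 of the 102, against 3172 of all 17754 genes. With RUVs factors, a correction for unwanted variation that the study also used, 3 members were higher and 14 lower. Of all genes tested 935 and 502 were so in that fit. With the choroid plexus level as a covariate 1 was higher and 7 lower, against 2.65% and 1.29% of all genes. The 4 lower members of the main fit were Npy, Scn2b, Nefl and Nefm. Nefl, the light neurofilament, had 539, 585 and 650.0 CPM in WT and 328, 496 and 620 CPM in Cul3+/- mice, 5 of 6 libraries being below the WT range, with a log2 fold change of -0.31 (SE 0.12) and of -0.22 without replicate 1. Npy, a neuropeptide of interneurons, had 22.3 to 27 CPM in WT and 16.9 to 23.6 CPM in Cul3+/- mice, with -0.26 (SE 0.08) and -0.21. Scn2b, a sodium channel beta subunit, had -0.33 (SE 0.12) and -0.27.

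Synaptic and field markers overlapped between genotypes. Grin2d, an NMDA receptor subunit, was the single neuronal member that was higher, with 0.28 (SE 0.12). Slc17a7, the vesicular glutamate transporter, had 480, 521 and 659 CPM in WT and 363, 491 and 577 CPM in Cul3+/- mice, with -0.15 (SE 0.11). Gria1, Camk2a and Gad1 had -0.06 (SE 0.08), 0.11 (SE 0.18) and 0.01 (SE 0.07). Sst and Nrgn had -0.29 and -0.24, and neither had an unadjusted p under 0.05. In the hippocampal field list 0 of 24 members had an unadjusted p under 0.05. Its members with the smallest p were Rgs14 of CA2 and Wfs1 of CA1, at -0.32 (SE 0.16) and -0.35 (SE 0.18), both lowest in replicate 1 and at -0.21 and -0.23 without it.

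Leaving out Cul3+/- replicate 4, the library alone on the first principal component, moved the classes differently. It raised the genes with an unadjusted p under 0.05 from 613 to 1553 higher (8.66%) and from 284 to 1166 lower (6.50%). The cilium list was at 64 members and a median of 0.44. The vascular list went from 11 to 22 of 68 members higher, and lower neuronal members went from 4 to 18, of which 11 were among the 24 general and cytoskeletal genes. With replicates 1 and 4 both left out there were 10 higher vascular and 9 lower neuronal members, against 6.55% and 3.81% of all genes.

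Myelin genes had a median of -0.19 over 20 tested members (Mog, Nkx6-2, Opalin and Tmem125 had too few counts), with 0 at an unadjusted p under 0.05. Mbp, myelin basic protein, had 56.9, 67.4 and 73.3 CPM in WT and 43.2, 51.7 and 74.2 CPM in Cul3+/- mice, with 4 of 6 libraries below the WT range and replicate 5 above it (log2 fold change -0.27, SE 0.13). Bcas1, an early marker of myelin-forming oligodendrocytes, had -0.48 (SE 0.22). Without replicate 5 alone the median was -0.30 and 9 members were lower, against 0.993% of all genes. Without replicate 3 alone 4 members were lower, against 399 of all genes tested, and without replicate 1 alone 0 were. Without replicates 1 and 5 together 7 were lower, against 0.808% of all genes, and with RUVs factors 10, against 502 of all genes tested.

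Outside the lists, Anxa8, an annexin (chr14:34085981-34100571, plus strand), had the smallest p of the genes higher in Cul3+/- mice. It had 0.652, 0.725 and 1.31 CPM in WT and 1.42, 1.75 and 2.37 CPM in Cul3+/- mice, and its log2 fold change was 1.17 with and without replicate 1 (SE 0.21 and adjusted p 0.628 with it). Rmrp, the RNA of the ribonuclease MRP, had 1568 to 2021 CPM in WT and 2161 to 2693 CPM in Cul3+/- mice, without overlap (0.38, SE 0.07). Besides Cul3, the lower genes with the smallest p were the lincRNA 1700020I14Rik at -0.34 (SE 0.08), the inflammatory caspase Casp1 at -0.40 (SE 0.11), Tmem14a at -0.26 (SE 0.07), the semaphorin Sema7a at -0.34 (SE 0.10) and Btbd16 at -0.86 (SE 0.25). Of these 5, Casp1 and Sema7a did not overlap between genotypes.

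In the cortex of the same mice the cilium genes did not differ in this way. There the median over 90 tested members was -0.02, with 1 member higher and 2 lower at an unadjusted p under 0.05, against 1.52% and 1.70% of all genes, and the list level ran from 0.29 to 1.01 in WT and from 0.48 to 0.69 in Cul3+/- mice. No cortex library was rich in choroid plexus genes, whose list level lay between -0.47 and 0.62. The difference of the 2 genotype effects, hippocampus minus cortex, with mouse as a block, had a median of 0.41 over 106 cilium genes, of which 99 were positive and 15 (14.2%) had an unadjusted p under 0.05 towards hippocampus with 0 towards cortex, against 3.38% and 3.01% of 19381 genes. For Armc3 this difference was 1.27 (unadjusted p = 0.0024), and for Foxj1 0.59 (unadjusted p = 0.14). By the quasi-likelihood test 0 genes of 19381 passed the adjusted threshold, with 1239 at an unadjusted p under 0.05, and DESeq2 and the likelihood ratio test called 0 as well.

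In the cerebellum both classes were higher together. The cilium median was 0.56, with 32 of 99 members higher at an unadjusted p under 0.05 against 3.78% of all genes (1.11% lower), and the choroid plexus median was 1.64, with 24 of 27 members higher. The choroid plexus level there was 2.5 to 3.67 in 5 Cul3+/- mice, 1.85 and 3.10 in WT replicates 1 and 3, and 0.18 to 0.44 in the remaining 5 mice. With that level as a covariate, a fit added after the data were seen, the cilium median in cerebellum was 0.04. In that fit 0 members were higher and 1 lower, against 1.52% and 1.30% of all genes. The same covariate left 0.33 and 49 members in hippocampus, where 1 library held the high level. In cerebellum the level went largely with genotype, so the covariate cannot separate level from genotype there and the fits are not comparable. The difference hippocampus minus cerebellum was -0.12 for the cilium median, with 5 members towards hippocampus and 1 towards cerebellum at an unadjusted p under 0.05, against 1.63% and 2.46% of all genes, and passed the adjusted threshold for 0 genes by the quasi-likelihood test, with 793 at an unadjusted p under 0.05, while DESeq2 called 2 and the likelihood ratio test 3.

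**Figure D5:**
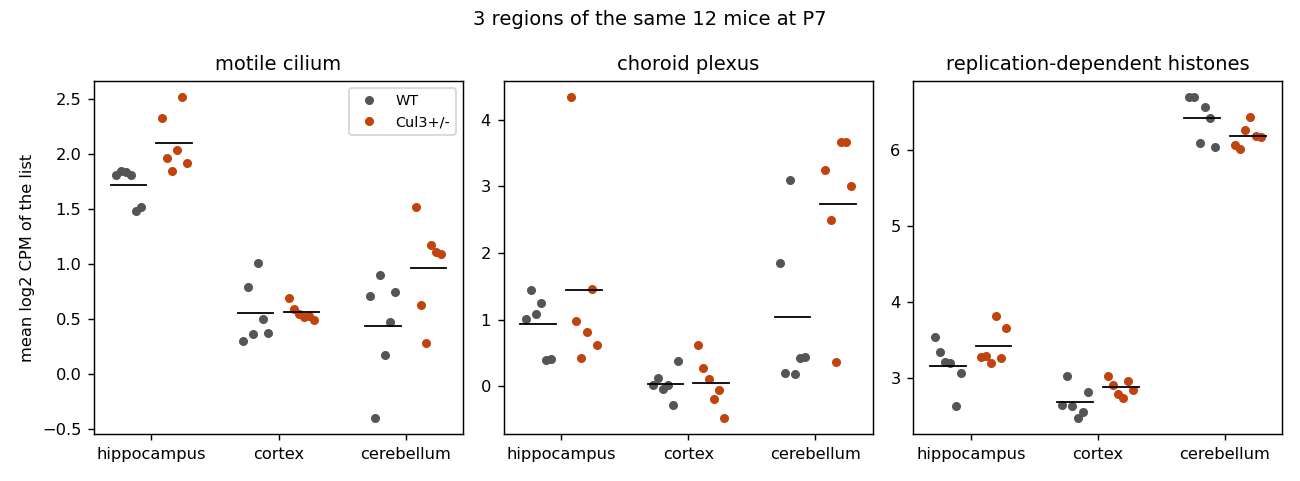
Mean log2 CPM of the motile cilium, choroid plexus and replication-dependent histone lists (vertical axes) in hippocampus, cortex and cerebellum of the same 12 mice at P7. Points are libraries and bars are group means. Motile cilium genes are apart between genotypes in hippocampus and overlap in cortex, and choroid plexus genes are high in 1 hippocampus library, in no cortex library and in 7 cerebellum libraries.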

How the data were processed

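The deposited values are expected counts per gene, which the authors obtained with RSEM 1.3 from STAR 2.5.3a alignments (GRCm38.p5, Gencode vM16) of reads trimmed by Cutadapt 1.14. The library kit was stranded, and whether the counting used strand is not given in the sources used here. The expected counts, 5.93% of them not whole, were rounded and genes with few counts removed (filterByExpr, minimum count 10, total 15). WT and Cul3+/- were compared with edgeR 4.0.16 in R 4.3.3 (quasi-likelihood test, TMM scaling, Benjamini-Hochberg adjusted p of at most 0.1, prior count 2 for log2 CPM), genotype being the sole term. The study used RUVs factors and sex, of which the first is an alternative. Differences between regions had mouse as a block over 36 libraries. Fits were tested on simulated data. Members and gene lists were chosen with earlier results of these data known, so lists have counts and medians beside those of all genes and no test of their own. Genes are named by a rule: Cul3, fixed defining markers, the 2 members of each main list with the smallest p, and the 6 higher and 6 lower genes with the smallest p. Others are marked where they appear. Of 620 list symbols 3 were not matched. No 2 libraries of a group agreed within sampling noise (at least 11.1 chi-square per degree of freedom). That the 12 libraries are separate mice is taken from the labels. Of the genes under this rule, 2 are not reported here.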

Additional observations from a re-analysis of the deposited data

Results flagged for a closer look

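A library was singled out where, in a group of 6, the gap between the most extreme library and its nearest neighbour took up a larger share of the group's range than Dixon's critical value for 6 samples, a rule that chance meets in about 1 group in 20. Of 198 groups examined 9 met it, no more than that rate gives. Cul3+/- replicate 1 accounted for 5 of these, as the highest library of its group in the choroid plexus list (mean log2 CPM 4.34) and in Tmem72 (log2 CPM 5.39), Ttr (11.99), Kl (4.69) and Folr1 (5.11). These genes are members of that list and the library was already known to be rich in them, so the 5 are not separate findings. Cul3+/- replicate 5 was highest in Ccdc180 (log2 CPM 2.35). Among WT libraries, replicate 6 was highest in the neocortex list (mean log2 CPM 4.41), and replicate 5 was lowest in Hist2h2ac (log2 CPM 3.05) and in Dcn (log2 CPM 4.48).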

How the results depend on the processing

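Besides leaving out libraries, the fits were repeated with upper-quartile scaling, no low-count filter, the likelihood ratio test, DESeq2, RUVs with 3 factors, the replicate number or the mouse-name prefix (C1, C2 and C4, balanced between genotypes) as a block, Xist as a covariate for sex and the choroid plexus level as a covariate. Cul3 was called in all of them. Genes called numbered 1 in most fits, 6 with DESeq2 (Cul3, Anxa8, Rmrp, Cd93, Armc3 and 1700020I14Rik) and 3 with the likelihood ratio test. The RUVs fit, which also used upper-quartile scaling and the likelihood ratio test, called 139, so its factors are not the only change. In that fit genes at an unadjusted p under 0.05 numbered 1437, against 897 in the main fit. Without the low-count filter these were 1535. Without 1 library they ranged from 559 to 2719 and calls from 1 to 2, the second being Anxa8 without WT replicate 2 (adjusted p = 0.0772). Without replicates 1 and 4 together, and 1 and 5 together, both added after the data were seen, they numbered 1869 and 383. RUVs called, in the same direction as the main fit, the 6 genes that DESeq2 called. Of the other named genes it called Slc39a4, Slc2a1, Ulk4, Ubxn10, Wdr78, Wdr63, Spag16, Ccdc40, Ccdc180 and Foxj1 in the same direction. It likewise called Ccdc60, Ttc21a, Bcas1, Nefl, Tmem14a, Sema7a and Btbd16.

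Without 1 library the list medians ranged from 0.30 to 0.47 (motile cilium), from -0.047 to 1.45 (choroid plexus), from 0.081 to 0.20 (vascular) and from -0.11 to -0.014 (neuronal), and Cul3 from -0.91 to -0.86. Cilium members at an unadjusted p under 0.05 were 46 without WT replicate 5 and 45 without WT replicate 6, and higher vascular members 4 without WT replicate 5, 6 without WT replicate 1 and 7 without WT replicate 6. Of all genes tested 403 were higher without WT replicate 5, 538 without WT replicate 1 and 376 without WT replicate 6. The cilium median was 0.20 without Cul3+/- replicates 1 and 5. The choroid plexus median was 0.11 with RUVs, 0.083 with its own level as a covariate, 0.49 with the replicate block, and -0.041 and -0.19 without replicates 1 and 4, and 1 and 5. The vascular median was 0.041 without 1 and 5, and the neuronal median was -0.0099 and -0.012 without these pairs. For the region differences, the count of genes called against cerebellum was 2 with DESeq2 and 3 with the likelihood ratio test, and 0 to 1 without 1 mouse (1 without WT replicate 3 or Cul3+/- replicate 3). Against cortex it was 0 in every fit.

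Log2 fold changes that changed sign were those of Ttr (-0.52 with RUVs, -1.04 with the choroid plexus covariate, -0.23 with the replicate block, -1.33 and -1.81 without replicates 1 and 4 and without 1 and 5), Kl (-0.12 with the covariate, -0.26 and -0.24 without those pairs), Kcnj13 (-1.19 with RUVs, -1.23 with the covariate, -0.87 and -1.99), Folr1 (-0.17 and -0.27), Tmem72 (-0.18 without 1 and 5), Otx2 (-0.35 without 1 and 5), Col1a1 (-0.0060 with RUVs, -0.043 with the covariate, -0.051 and -0.21) and Grik4 (-0.0049 and -0.012). Without 1 library the ranges were -1.43 to 5.04 (Ttr), -0.23 to 0.74 (Kl), -0.047 to 2.46 (Folr1), -1.18 to 2.45 (Kcnj13), -0.017 to 4.22 (Tmem72), -0.085 to 0.44 (Col1a1), -0.083 to 0.18 (Camk2a), -0.019 to 0.060 (Gad1) and -0.034 to 0.066 (Grik4). The main fit does not pair samples by replicate number, though same-numbered WT and Cul3+/- mice share a name prefix. The correlations of same-numbered deviations ran from -0.66 to 0.26 and 1 of 6 libraries correlated best with its own number. Such correlations cannot exclude a pairing. With the replicate block 44 cilium, 8 vascular and 1 choroid plexus members were higher and 11 neuronal members lower, against 404 higher and 274 lower of all genes, and 1 gene was called. What moved these values was not tested beyond the settings named. Estimates for low genes are limited by depth, and the p-values set a genotype difference against the spread among these 12 mice within genotypes.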

Other observations

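Replication-dependent histone genes, whose transcripts lack a poly(A) tail and are kept by ribosomal depletion, had a median log2 fold change of 0.23 in hippocampus, with 61 of 63 tested members positive and 7 higher at an unadjusted p under 0.05. Hist1h2ah and Hist2h2ac had the smallest p, at 0.89 (SE 0.36) and 0.36 (SE 0.15). WT replicate 5 was the lowest library in 53 of the 63 and Cul3+/- replicate 4 the highest in 37, and the count of 7 moved with the libraries used. The number of higher genes among all tested follows in brackets, and was 613 with all libraries. The histone count was 1 without Cul3+/- replicate 4 (1553, or 8.66%), 0 without Cul3+/- replicate 6 (717), 1 without WT replicate 5 (403) and 3 without WT replicate 6 (376). It was 16 without Cul3+/- replicate 1 (412), 17 without Cul3+/- replicate 3 (754), 13 without WT replicate 1 (538) and 34 with RUVs (935). The median stayed between 0.14 and 0.29 in the fits without 1 library. Many of these genes are near-identical copies among which reads can be split, so single members are uncertain. In the cortex of the same mice 60 of 63 members were positive, with a median of 0.17, and in cerebellum 2 of 65 were positive, with a median of -0.23. The difference hippocampus minus cerebellum had an unadjusted p under 0.05 in 54 of 65 members towards hippocampus, against 1.63% of all genes.

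Microglia genes had a median of -0.12 over 22 members, with 4 lower and 1 higher at an unadjusted p under 0.05. Lower members were 2 without Cul3+/- replicate 1, 2, 3 or 6 or without WT replicate 1, 4 or 6, 1 without WT replicate 3, 7 without Cul3+/- replicate 4, 6 without WT replicate 5, and 2 with the choroid plexus covariate. Lower genes among all tested were 284 with all libraries and 183 to 404 in the fits with 2 lower members. They were 227 without WT replicate 3, 1166 without Cul3+/- replicate 4 and 192 without WT replicate 5. Named after their values were seen, Siglech, C1qc, Ctss and Cx3cr1 were lower, at -0.30 (SE 0.10), -0.19 (SE 0.07), -0.23 (SE 0.10) and -0.13 (SE 0.06), and Sall1, which progenitors also express, was higher at 0.20 (SE 0.08). In cortex 8 of 22 members were lower, against 1.70% of all genes, with a median of -0.18. The medians of genes encoding Cul3 partners, astrocyte genes and oligodendrocyte precursor genes were -0.02, 0.05 and -0.11, with 0, 0 and 1 member at an unadjusted p under 0.05. Without Cul3+/- replicate 4, 4 of 26 Cul3 partner genes were lower and 1 higher, against 6.50% and 8.66% of all genes. Of the precursor genes 4 were lower without Cul3+/- replicate 3, 3 with RUVs and 0 without Cul3+/- replicate 1. Of all genes tested 399, 502 and 196 were lower in these fits. Immediate early genes had a median of -0.01, and progenitor genes had 0.08 with all libraries and -0.02 without Cul3+/- replicate 1, with 0 members at this p in both lists. Markers of neighbouring neocortex, striatum and thalamus had 1 of 9, 1 of 11 and 0 of 8 members at this p.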
